A study of Mus musculus with 10 samples.

Results

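The genes that carry the leukaemia inhibitory factor (LIF) signal through its receptor to STAT3 were followed in *Max*-null ESCs, mouse embryonic stem cells that lose MAX when doxycycline (Dox) is given. They are the receptor chains *Lifr* and *Il6st*, the kinase *Jak1*, the transcription factor *Stat3*, the feedback inhibitor *Socs3* and the target genes *Pim1*, *Pim3*, *Junb* and *Bcl3*. Their probe sets were taken by symbol, keeping those that the annotation of the array pairs with 1 of these symbols alone, which gave 24 probe sets for 9 genes out of 45037 probe sets and 18193 genes. A gene was read first from its brightest probe set, by the mean over all 10 arrays, and then from the others.

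LIF binds LIFR, which pairs with gp130, the product of *Il6st*. The kinase JAK1 on the paired chains phosphorylates STAT3, which moves to the nucleus and binds its target genes. SOCS3, itself made from a STAT3 target gene, binds gp130 and JAKs and damps the signal. In mouse ESCs this pathway sustains self-renewal, which is why LIF is part of ESC medium.

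The cells were male 129SV ESCs in which both endogenous *Max* alleles are disrupted and a *Max* cDNA is held under a tetracycline-off system, so that Dox switches it off. In medium with LIF and serum, a first set of arrays held untreated cells and cells after 1, 2, 3 and 4 d of Dox, and a second set held a further untreated array and arrays after 6 and 8 d of Dox. In 2i+LIF, where inhibitors of MEK and GSK3β are added, there was 1 array after 6 d of Dox and 1 untreated array. The labels give 6 d of 2i for both of these arrays, so that untreated there means without Dox. Every array, untreated ones included, comes from cells that lack the endogenous gene, and ESCs with an intact *Max* gene, with or without Dox, were not analysed here, so that loss of MAX and any action of Dox itself cannot be told apart. Values are the authors' log2 values after robust multi-array analysis (RMA), so that a difference of 1 is a 2-fold difference, and they compare arrays for a given probe set, not probe sets with each other.

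There was 1 array per Dox time, and whether the untreated arrays in LIF+serum were separate cultures is not stated. The p-values therefore rest on the scatter of the arrays at hand around a straight line over days, or around 1 mean for all Dox times. That scatter holds the spread between arrays, which could be technical, and any change over days that departs from the fitted shape. These parts cannot be told apart. The 1 probe set of *Max* read 5.57 untreated and 5.53, 5.60, 5.07 and 5.20 at 1 to 4 d, and in the second set 5.74 untreated, 6.20 at 6 d and 6.19 at 8 d. Where this probe set lies relative to the disruption and the cDNA is not known here, and it therefore checks nothing about the treatment. The excess of the 3′ over the 5′ probe set of beta-actin, which grows as RNA shortens, was 0.52 to 0.56 (log2) at 1 to 4 d, against 0.41 on their untreated array, and 1.22 to 1.46 at 6 and 8 d, against 0.88 on theirs. Its part in the results was not tested.

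The first question was whether these genes changed with time on Dox. Over the 8 arrays in LIF+serum, with a slope per day of Dox and the array set as a covariate in limma, 1 of the 9 genes rose (*Jak1*), 1 fell (*Bcl3*) and 7 did not pass at an adjusted p under 0.05. Over all genes 5.75% rose and 5.33% fell, and no test compared these shares. The median slope was 0.040 per day for the 9 genes and -0.009 per day for all genes. Of the 24 probe sets, 3 rose, 2 fell and 19 did not pass, against 4.77% and 4.17% of all probe sets. In bulk RNA of this kind, more RNA per cell and a larger share of cells that express a gene cannot be told apart.

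**Figure D1:**
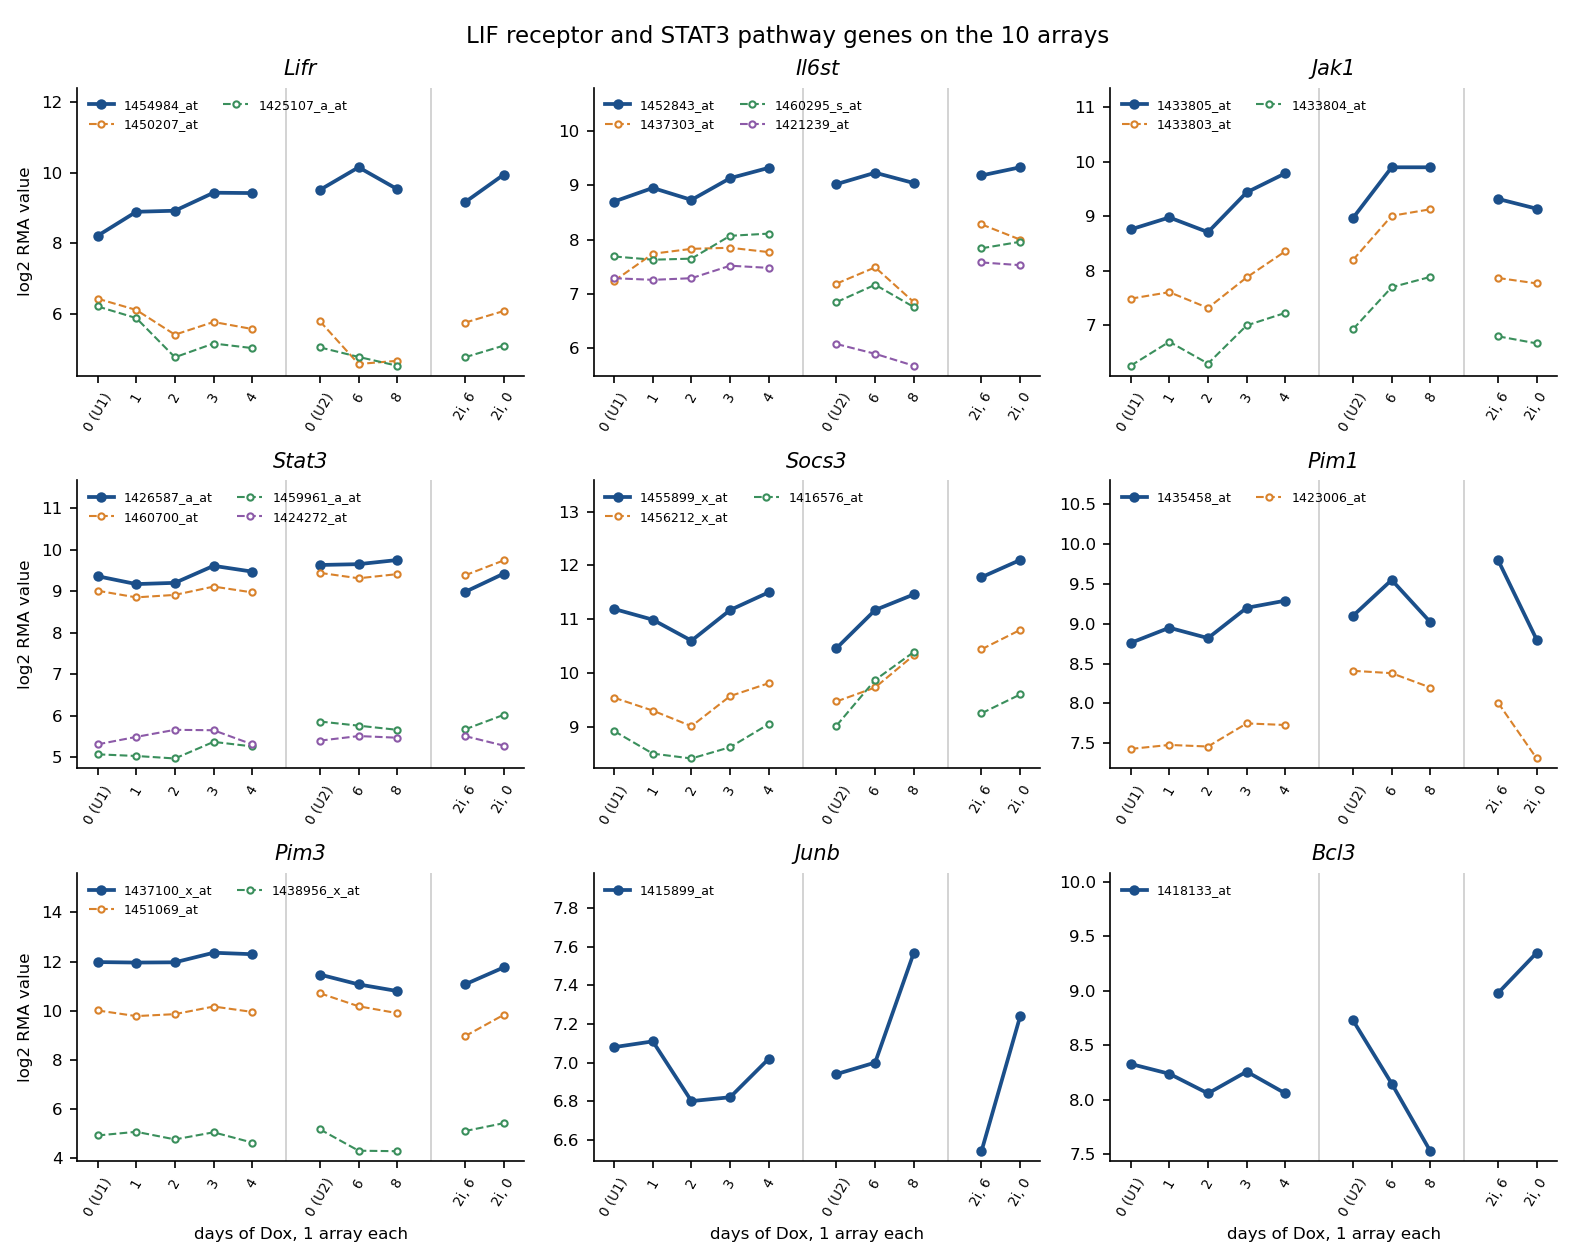
Deposited log2 values of each probe set (y axis, log2 RMA value) on the 10 arrays (x axis, days of Dox), 1 panel per gene, with grey lines between the first set in LIF+serum (U1 is its untreated array), the second set (U2 is its untreated array) and 2i+LIF. Solid lines and filled points are the brightest probe set of a gene and dashed lines the others. All 3 probe sets of *Jak1* end each LIF+serum set above its untreated array. In LIF+serum the brightest *Lifr* probe set read above its untreated array with Dox and the dimmer ones below. In 2i+LIF all 3 *Lifr* probe sets read lower with Dox.

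Of the receptor chains, *Lifr*, the chain that binds LIF, gave opposite readings on its 3 probe sets. The brightest, 1454984_at, read 8.21 untreated and 8.89, 8.92, 9.43 and 9.42 at 1, 2, 3 and 4 d of Dox, and in the second set it read 9.51 untreated, 10.15 at 6 d and 9.53 at 8 d. Every Dox array lay above the untreated array of its own set, but both groups overlapped, since the second untreated array was 2.46-fold above the first. The slope of 0.087 ± 0.051 (SE) per day did not pass (limma, adjusted p = 0.345), and neither did the mean of 6 Dox arrays minus that of 2 untreated arrays, 0.67 ± 0.24 (SE; adjusted p = 0.144). The trend passed when the array at 8 d was left out (0.17 per day, adjusted p = 0.0465) and when the first set alone was used (0.30 per day, adjusted p = 0.0378).

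The dimmer *Lifr* probe sets read lower with Dox. 1450207_at read 6.43 untreated, 6.11, 5.41, 5.77 and 5.57 at 1 to 4 d, and in the second set 5.79 untreated, 4.58 at 6 d and 4.67 at 8 d. All 6 Dox arrays lay below the untreated array of their set. Its values at 6 and 8 d were also below the medians of those arrays, 5.31 and 5.32, as were those of 1425107_a_at (4.78 and 4.53). On these arrays the 3′ excess of beta-actin was larger (1.46 and 1.22), and its part in the *Lifr* values was not tested. The probe set 1450207_at fell by 0.165 ± 0.037 (SE) per day (limma, adjusted p = 0.0246). It was also the 1 member probe set that passed in the comparison of Dox with untreated arrays, where it fell by 0.914 ± 0.202 (SE, 6 and 2 arrays; adjusted p = 0.0483) and where 1.88% of all probe sets rose and 1.11% fell.

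The trend of 1450207_at lost its call without the array at 4 d (adjusted p = 0.0599), at 6 d (adjusted p = 0.0526) or the second untreated array (adjusted p = 0.385). Its call in the comparison of Dox with untreated arrays was lost in 7 of the 8 fits that left out 1 array (adjusted p up to 0.214), all but that without the array at 1 d. The remaining probe set, 1425107_a_at, read 6.21 untreated, 5.88, 4.77, 5.16 and 5.03 at 1 to 4 d, then 5.05 untreated, 4.78 at 6 d and 4.53 at 8 d, with a slope of -0.116 ± 0.053 (SE) that did not pass (adjusted p = 0.220). Over the 10 arrays the correlation with the brightest probe set was -0.59 for 1450207_at and -0.67 for 1425107_a_at, as a description over arrays of shared sets. The mouse gene is known to give a membrane-bound and a soluble receptor from different transcripts, and which transcript or exon each probe set reads is not known here. The mean of all 3 probe sets turned the direction of the *Lifr* slope to -0.064 per day (adjusted p = 0.193).

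*Il6st*, which encodes the signalling chain gp130 shared by cytokines of the IL-6 family, gave no slope that passed. Its brightest probe set read 8.70 untreated and 8.95, 8.73, 9.13 and 9.32 at 1 to 4 d, and 9.02 untreated, 9.23 at 6 d and 9.04 at 8 d. All 6 Dox arrays were above the untreated array of their set, by at most 0.63 at 4 d, and both groups overlapped. The slopes of the 4 probe sets ranged between -0.022 and 0.040 per day and all missed the threshold (adjusted p of 0.517 to 0.912). The dimmest of them differed more between the untreated arrays, at 6.08 in the second set and 7.29 in the first, than between any Dox array and its own untreated array.

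*Jak1*, the kinase that acts first downstream of gp130, rose on each of its 3 probe sets. The brightest read 8.76 untreated, 8.98, 8.71, 9.44 and 9.79 at 1, 2, 3 and 4 d, and 8.97 untreated, 9.90 at 6 d and 9.90 at 8 d. The arrays from 3 d on were above both untreated arrays, that at 2 d was below both, and the groups therefore overlapped. The fold over the untreated array of the same set was 0.961 at 2 d, 1.59 at 3 d, 2.04 at 4 d and 1.91 at 6 and 8 d.

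The slopes of the 3 *Jak1* probe sets were 0.154 ± 0.038, 0.139 ± 0.035 and 0.145 ± 0.035 (SE) per day, with adjusted p-values of 0.0343, 0.0387 and 0.0330 from limma. They share 1 transcript source and count as 1 gene. The call on the brightest was lost without the array at 1 d (adjusted p = 0.059), 3 d (0.0639), 4 d (0.0818) or 6 d (0.0726), or without the second untreated array (0.291), while the slope stayed between 0.13 and 0.21. As a difference between Dox and untreated arrays, 0.68 ± 0.27 (SE) on the brightest probe set, *Jak1* did not pass (adjusted p = 0.172). On the arrays at 6 and 8 d the 3′ excess of beta-actin was also larger (1.46 and 1.22), and its part in the *Jak1* values was not tested. At 4 d, where *Jak1* was 2.04-fold higher, that excess was 0.55, against 0.41 untreated. Within the first set alone the slope was 0.25 per day (adjusted p = 0.0886) and within the second 0.13 (adjusted p = 0.0948).

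*Stat3*, the transcription factor at the end of the pathway, showed no slope that passed. Its brightest probe set read 9.36 untreated, 9.17, 9.20, 9.61 and 9.47 at 1 to 4 d, and 9.63 untreated, 9.65 at 6 d and 9.75 at 8 d. Dox and untreated arrays overlapped, and the largest difference from an own untreated array was 0.24 at 3 d. The 4 probe sets had slopes between -0.003 and 0.025 per day with standard errors of 0.025 to 0.029 (limma, adjusted p of 0.659 to 0.985). For the brightest, Dox minus untreated was 0.03 ± 0.16 (SE; adjusted p = 0.930).

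**Figure D2:**
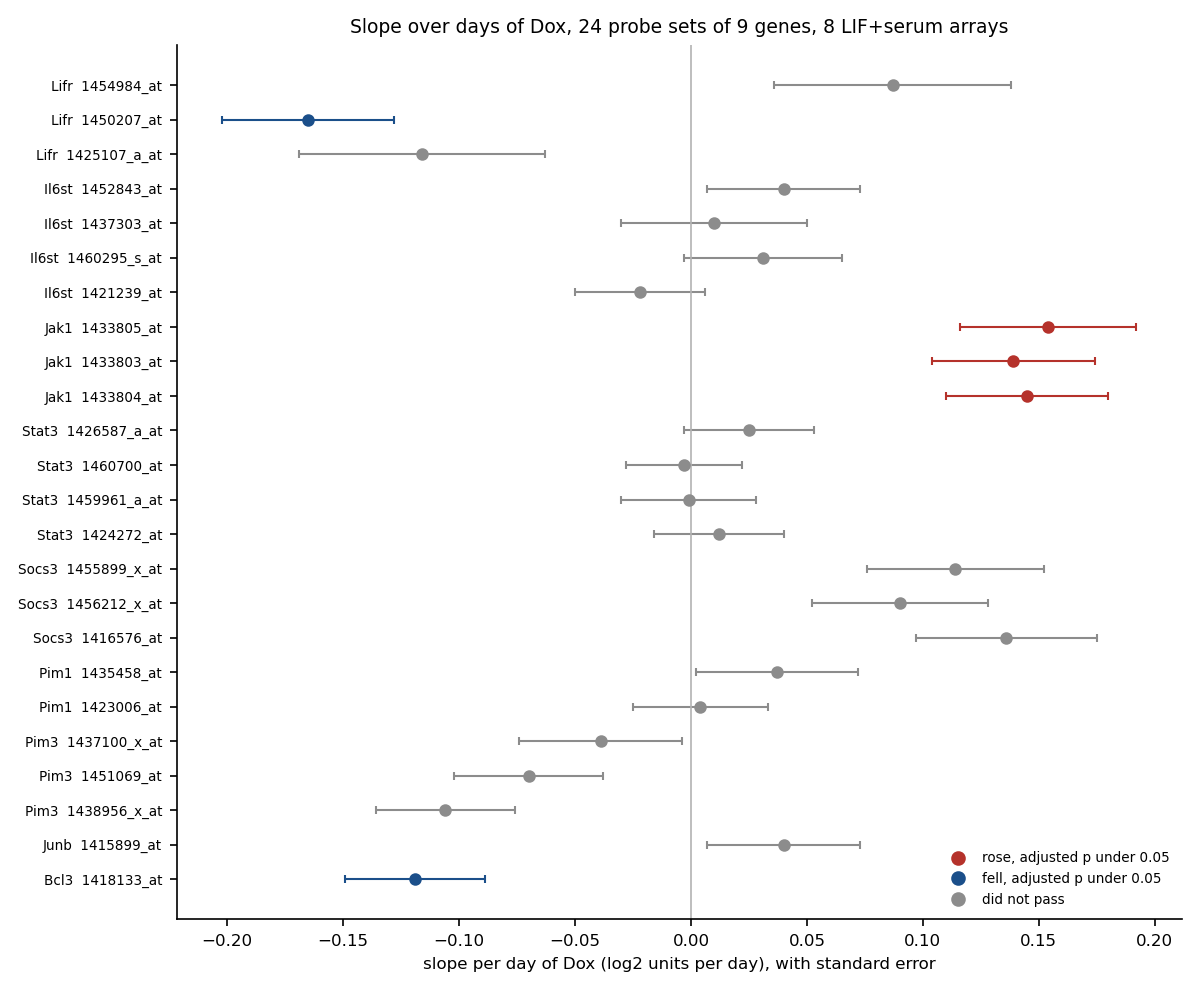
Slope per day of Dox (x axis, log2 units per day) of the 24 probe sets, with bars of 1 standard error from limma over the 8 arrays in LIF+serum. Red marks the 3 *Jak1* probe sets, which rose, blue the *Lifr* probe set 1450207_at and *Bcl3*, which fell, and grey the 19 that did not pass at an adjusted p of 0.05.

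*Socs3*, the feedback inhibitor and a well known STAT3 target, had its highest folds late. The brightest probe set read 11.19 untreated, 10.99, 10.60, 11.17 and 11.50 at 1 to 4 d, and 10.46 untreated, 11.17 at 6 d and 11.46 at 8 d. The first 3 days lay below the untreated array of that set and the later times above theirs, so that both groups overlapped. The lowest fold over the own untreated array was 0.666, at 2 d, and the highest was 2.0, at 8 d, after 1.64 at 6 d. The slope of 0.114 ± 0.038 (SE) did not pass (adjusted p = 0.0915, unadjusted p = 0.0126 from limma), though it did without the first untreated array (adjusted p = 0.0421) or the array at 2 d (adjusted p = 0.0479). The other probe sets had slopes of 0.090 and 0.136 (adjusted p = 0.183 and 0.0593), and 1416576_at was 2.59-fold above its untreated array at 8 d. The suffix _x_at of the brightest probe set marks probes that can also match other transcripts.

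The promoter of *Socs3* is shown because it is the only one of the members' promoter windows with the palindrome TTCNNNGAA, the form of site that STAT proteins bind. RefSeq windows of the GRCm38.p6 build, from 250 bases before to 50 after a start, matched all 9 genes with 11 windows. The palindrome reads the same on both strands and lay in 1 of the 11 windows and in 8.3% of 32851 promoters. Capitals mark the match, 154 to 146 bases before the start, in the 250 bases before the start at chr11:117969367-117969616 on the minus strand.
Socs3: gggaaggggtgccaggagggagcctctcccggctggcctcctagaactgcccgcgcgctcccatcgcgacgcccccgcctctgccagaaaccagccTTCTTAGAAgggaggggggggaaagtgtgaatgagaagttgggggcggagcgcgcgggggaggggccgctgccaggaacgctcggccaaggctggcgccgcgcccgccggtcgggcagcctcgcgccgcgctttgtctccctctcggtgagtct

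*Pim1* and *Pim3* encode serine/threonine kinases that promote survival and are induced by STAT3. For *Pim1* the brightest probe set read 8.76 untreated, 8.95, 8.82, 9.20 and 9.29 at 1 to 4 d, and 9.10 untreated, 9.55 at 6 d and 9.02 at 8 d. Dox arrays were above their own untreated array in 5 of 6 cases, by at most 0.53, and the groups overlapped. The slope was 0.037 ± 0.035 (SE; adjusted p = 0.591), and that of the other probe set 0.004 ± 0.029 (SE; adjusted p = 0.960).

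MAX binds DNA together with MYC proteins at the E-box CACGTG, a palindrome that also reads the same on both strands. It lay in 1 of the 11 windows, before a second *Pim1* start, and in 7.15% of the 32851 promoters. The 150 bases that hold it lie at chr17:29492935-29493084 on the plus strand, and capitals mark the E-box, 58 to 53 bases before that start.
Pim1: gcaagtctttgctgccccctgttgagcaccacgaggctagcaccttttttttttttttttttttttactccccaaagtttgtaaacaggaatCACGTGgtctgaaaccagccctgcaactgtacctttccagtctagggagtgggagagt

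*Pim3* read lower with Dox at 6 and 8 d. The brightest probe set read 11.98 untreated and 11.96, 11.97, 12.36 and 12.30 at 1 to 4 d, then 11.47 untreated, 11.07 at 6 d and 10.80 at 8 d. Dox arrays of the first set lay from 0.03 below to 0.37 above their untreated array, and those of the second lay below theirs. Slopes were -0.039, -0.070 and -0.106 per day on the 3 probe sets and none passed (limma, adjusted p = 0.564, 0.213 and 0.0575). At 8 d the folds over the untreated array were 0.63, 0.573 and 0.539.

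*Junb*, an AP-1 transcription factor and an early target of STAT3, has 1 probe set here. It read 7.08 untreated, 7.11, 6.80, 6.82 and 7.02 at 1 to 4 d, and 6.94 untreated, 7.00 at 6 d and 7.57 at 8 d. The array at 8 d stood above all others in LIF+serum, the rest overlapped, and the slope of 0.040 ± 0.033 (SE) did not pass (adjusted p = 0.530).

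*Bcl3*, an atypical member of the IκB family that acts on transcription in the nucleus, fell. Its 1 probe set read 8.33 untreated, 8.24, 8.06, 8.26 and 8.06 at 1 to 4 d, and 8.73 untreated, 8.15 at 6 d and 7.53 at 8 d. All Dox arrays, from 7.53 to 8.26, were below both untreated arrays, at 8.33 and 8.73, and this was the 1 member gene whose groups did not overlap. Over all genes, 9.15% had all 6 Dox arrays below both untreated arrays and 3.63% had all 6 above. It fell by 0.119 ± 0.030 (SE) per day (limma, adjusted p = 0.0365), and the gene was 0.434-fold its untreated array at 8 d. The call was lost without the array at 1 d (adjusted p = 0.0573), 2 d (0.0519), 4 d (0.0702) or 8 d (0.15), without the second untreated array (0.517) with no term for the array set (0.0671) and with log2(day + 1) in place of days (0.0647). Dox minus untreated was -0.50 ± 0.21 (SE; adjusted p = 0.201).

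The second test asked for a change that need not grow with days. In the mean of 6 Dox arrays against 2 untreated arrays, 0 of the 9 genes passed in either direction in limma, against 2.11% of all genes that rose and 1.52% that fell, and at an unadjusted p under 0.05 2 members lay higher and 1 lower, against 2109 and 2733 of all 18193 genes. The fits of this test that left out 1 array also called 0 member genes each. Without the array at 3 d or 6 d 0 of all probe sets passed, and without that at 4 d only 143 rose and 11 fell. These fits could therefore call few or no members, and add little to the main result.

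At single times, counted on the brightest probe sets and without a test, no member was past 2-fold at 1 d (all genes, 3.0% higher and 0.566% lower), 2 d (4.28% and 1.36%) or 6 d (5.94% and 5.35%). At 3 d *Lifr* was 2.33-fold higher (6.13% of all genes were at least 2-fold higher and 3.06% lower). At 4 d *Lifr*, at 2.31-fold, and *Jak1* were higher (7.72% and 3.92%). Against the mean of both untreated arrays, this *Lifr* probe set was higher by only 0.57 and 0.56 (log2) at 3 and 4 d. The dimmer *Lifr* probe sets were past 2-fold the other way. 1425107_a_at was 0.369-, 0.486- and 0.443-fold its untreated array at 2, 3 and 4 d, and 1450207_at 0.493-, 0.434- and 0.462-fold at 2, 6 and 8 d. At 8 d *Socs3* was higher and *Bcl3* lower (6.38% and 5.65%). *Jak1* was then 1.91-fold higher, and *Socs3*, at a log2 difference of 1.00, stood at the limit itself. Its difference was 0.95 with centred arrays and 0.64 against the mean of both untreated arrays.

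The medium with 2i+LIF gave a second setting for the same 6 d of Dox, with 1 array on each side and no test. *Pim1* was the 1 member past 2-fold, at 9.80 after Dox, against 8.80 untreated (2.01-fold), where 1.75% of all genes were at least 2-fold higher and 2.42% lower. Its other probe set read 8.01 after Dox, against 7.31 untreated. With each array centred on its median, the *Pim1* difference was 0.98 and no longer past 2-fold. *Jak1*, higher with Dox in LIF+serum, read 9.32 after Dox, against 9.14 untreated, a difference of 0.18.

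The other 7 members read lower on their brightest probe sets after Dox in 2i+LIF, with a median difference of -0.37 over the 9 genes and 0.02 over all genes. The share of all genes that read lower is not given here, so that this count cannot be read as a result. *Il6st* differed by -0.16 on its brightest probe set and -0.12 on 1460295_s_at, but by 0.28 on 1437303_at and 0.05 on 1421239_at. *Lifr* read 9.16 after Dox, against 9.94 untreated, and its dimmer probe sets were lower as well, at 5.75 and 4.77 after Dox, against 6.08 and 5.10 untreated. *Pim3* read 11.07 after Dox, against 11.76 untreated, and *Junb* 6.54, against 7.24. *Stat3* read 8.98 after Dox, against 9.42 untreated, with 3 of its 4 probe sets lower by 0.36 to 0.43. *Socs3* was lower by 0.33 to 0.36 on all 3 probe sets, and *Bcl3* read 8.98 after Dox, against 9.35 untreated. The 3′ excess of beta-actin was 0.76 after Dox, against 0.78 untreated.

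**Figure D3:**
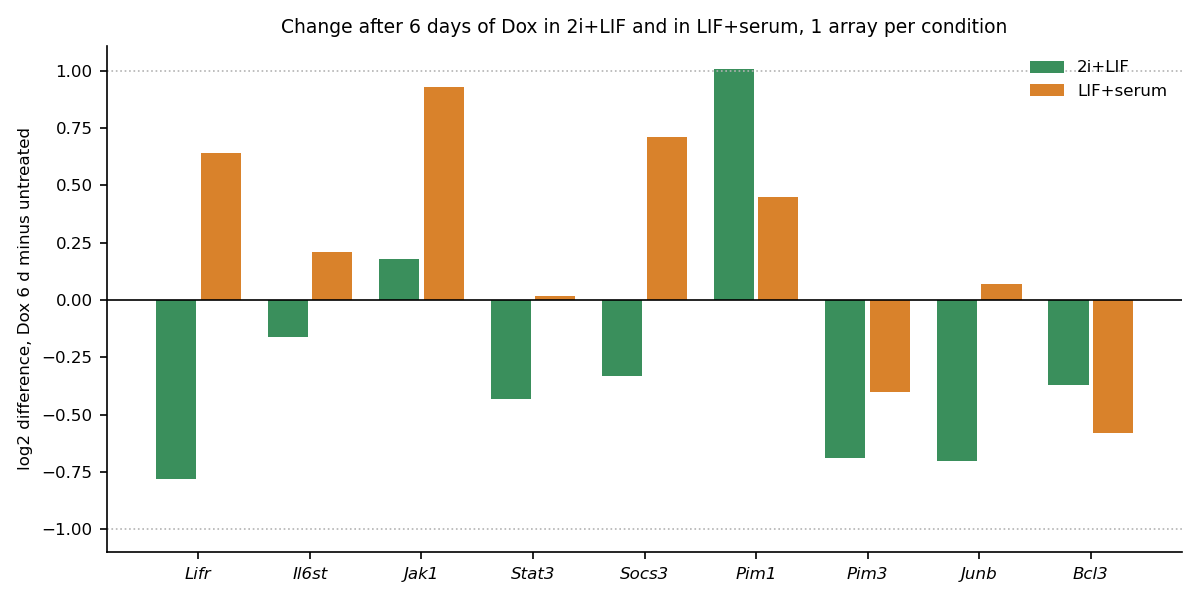
Difference of Dox 6 d from untreated (y axis, log2) on the brightest probe set of each gene, in 2i+LIF (left bar) and LIF+serum (right bar), each from 1 array against 1, with dotted lines at 2-fold. *Pim1* reached 1.01 in 2i+LIF, and *Lifr* was -0.78 in 2i+LIF and 0.64 in LIF+serum.

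Untreated cells of both media were also set side by side, though medium and array set cannot be told apart here. No member gene was past 2-fold the same way against both untreated LIF+serum arrays (all genes, 3.72% higher and 4.01% lower). The median probe set was itself 0.19 and 0.13 lower in 2i+LIF than on the first and second LIF+serum arrays. With each array centred on its median, *Socs3* was 1.10 and 1.77 higher in 2i+LIF, *Bcl3* 1.20 and 0.74 higher and *Lifr* 1.91 and 0.56 higher, while *Stat3* differed by 0.23 and -0.08, each on its brightest probe set. The other probe sets of *Lifr* differed by -0.16 and 0.42 (1450207_at) and by -0.92 and 0.18 (1425107_a_at). Those of *Stat3* differed by 0.91 and 0.42 (1460700_at), 1.13 and 0.29 (1459961_a_at) and 0.15 and 0.00 (1424272_at). *Il6st* was higher on all 4 probe sets, by 0.42 to 1.57. On the brightest probe sets, *Jak1* differed by 0.56 and 0.29, *Pim1* by 0.22 and -0.18, *Pim3* by -0.04 and 0.42 and *Junb* by 0.35 and 0.43. As deposited, *Socs3* read 12.10 untreated in 2i+LIF, above all 8 arrays in LIF+serum (10.46 to 11.50). After centring, *Socs3* was past 2-fold against both arrays, on 2 of its 3 probe sets. One of these, 1456212_x_at, was already past it as deposited (1.26 and 1.33). The share of all genes past 2-fold after centring is not given here, so that this call has no background to be read against.

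The rest of the pathway was read from lists that hold no member. Among ligands of the LIF family and the other receptors, 0 of 9 measured genes passed the trend (*Cntf* and *Il11ra1* had no probe set with their symbol alone). *Lif* lay between 4.79 and 5.25 on all arrays in LIF+serum, near the array medians of 5.26 to 5.33, with a slope of 0.00 ± 0.03 (SE; adjusted p = 0.985). *Osmr*, the receptor chain for oncostatin M, had a slope of -0.02 ± 0.04 (SE; adjusted p = 0.816). It read 3.61 to 4.73 in LIF+serum, below the array medians, so that its slope says little about the gene.

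Among the other JAK and STAT genes, 1 of 8 measured rose and 0 fell. This was *Jak2*, a kinase of the same family, which read 5.07 untreated, 6.03, 5.71, 6.13 and 6.95 at 1 to 4 d, and 5.51 untreated, 7.48 at 6 d and 7.58 at 8 d. All 6 Dox arrays were above both untreated arrays. Its slope of 0.30 ± 0.04 (SE) per day passed (limma, adjusted p = 0.00505), as did Dox minus untreated, 1.54 ± 0.31 (SE; adjusted p = 0.0440). In 2i+LIF it read 6.54 after Dox, against 6.15 untreated. The trend call was lost without the second untreated array (adjusted p = 0.245) and held in the other 7 fits that left out 1 array, while the Dox against untreated call was lost in 5 of 8 (without the second untreated array or that at 3, 4, 6 or 8 d; adjusted p of at most 0.185).

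Of 14 other inhibitors of the pathway, 1 fell and 0 rose. *Socs2*, a relative of *Socs3* that acts mainly on growth hormone signalling, read 9.30 untreated, 9.99, 10.03, 9.61 and 8.80 at 1 to 4 d, and 10.82 untreated, 9.20 at 6 d and 8.28 at 8 d. It was above its untreated array until 3 d and below from 4 d on, and fell by 0.27 ± 0.06 (SE) per day (limma, adjusted p = 0.0184). The call was lost without the array at 4 d (adjusted p = 0.0537) or 8 d (0.0679) or the second untreated array (0.471), and with log2(day + 1) in place of days (0.0645).

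Of 15 further STAT3 targets of ESCs, 4 rose and 0 fell, where 5.75% of all genes rose and 5.33% fell. *Klf4*, a pluripotency factor and direct STAT3 target, read 10.78 untreated, 11.27, 11.08, 11.89 and 12.00 at 1 to 4 d, and 11.12 untreated, 12.80 at 6 d and 12.70 at 8 d, a slope of 0.24 ± 0.04 (SE; adjusted p = 0.0069). *Fos*, an AP-1 factor, read 6.82 untreated, 6.53, 6.27, 7.64 and 7.63 at 1 to 4 d, and 6.86 untreated, 8.79 at 6 d and 9.45 at 8 d (slope 0.31 ± 0.05, SE; adjusted p = 0.00734). For both genes the arrays from 3 d on were above both untreated arrays, and among the fits that left out 1 array each call was lost only without the second untreated array (adjusted p = 0.266 and 0.294).

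*Icam1*, a cell adhesion molecule, rose by 0.17 ± 0.04 (SE) per day (adjusted p = 0.0174), a call that was lost without the array at 4 d (0.0525) or 8 d (0.0605) or the second untreated array (0.435), and with log2(day + 1) (0.0509). *Klf5*, named after its value was seen, rose by 0.15 ± 0.04 (SE; adjusted p = 0.0429), a call held in 1 of the 8 fits that left out 1 array, that without the array at 8 d. *Tfcp2l1*, *Gbx2* and *Sgk1*, also named after their values were seen, are STAT3 targets that sustain self-renewal in mouse ESCs and did not pass, with slopes of 0.12, -0.21 and 0.13 (adjusted p = 0.0827, 0.0507 and 0.146). Of the targets among the 9 genes, *Socs3*, *Pim1*, *Pim3* and *Junb* did not pass and *Bcl3* fell.

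**Figure D4:**
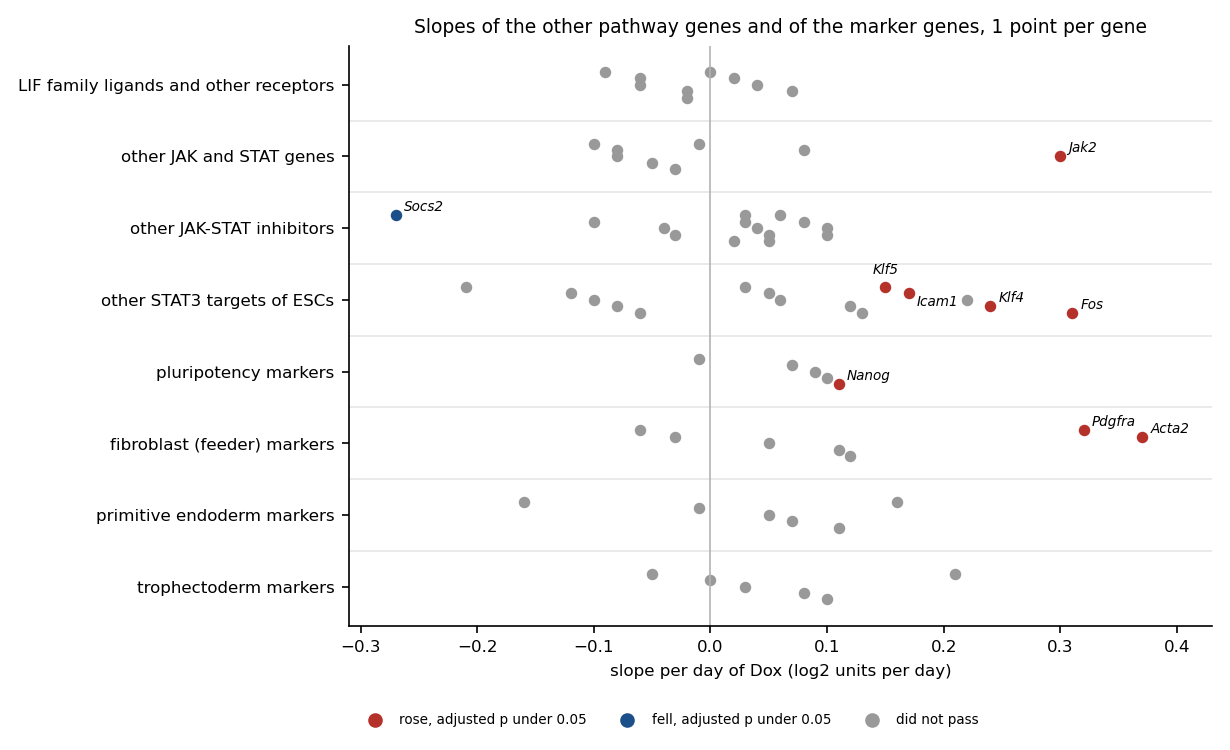
Slope per day of Dox (x axis, log2 units per day) of each measured gene of the other pathway lists and of the marker lists, 1 point per gene on its brightest probe set. Coloured points passed at an adjusted p of 0.05 and are named, red for rose and blue for fell.

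Markers of ESCs and of other cell types were read on the same arrays. Of 5 pluripotency markers 1 rose and 0 fell, the mean of the list lying between 11.72 and 12.50 on Dox arrays and at 11.55 and 11.87 on untreated arrays. The gene that rose was *Nanog* (0.11 ± 0.03 per day, SE; adjusted p = 0.0433), whose call was lost in all 8 fits that left out 1 array (adjusted p of 0.0502 to 0.714). Of 7 genes listed as fibroblast markers, which feeder cells would carry, *Pdgfra* and *Acta2* rose. Which cells carried their transcripts was not tested. The mean of the list was 4.81 to 6.05 on Dox arrays, highest at 8 d, and 4.62 and 4.99 on untreated arrays. *Pdgfra* kept its call in 7 of the 8 fits that left out 1 array (not without the second untreated array, adjusted p = 0.245) and *Acta2* in 2. At 8 d *Acta2* read 9.44 and *Pdgfra* 6.18, against 5.37 and 3.58 on the untreated array of that set. The marker genes that follow were named after their values were seen. *Col1a1* read between 4.07 and 4.64 in LIF+serum, below the array medians. The collagen genes *Col1a2* and *Col3a1* were not called, and read 6.90 and 4.57 at 8 d, against 5.19 and 2.84 on the untreated array of that set. *Thy1* and *Postn* were lower at 8 d, at 0.871- and 0.721-fold that untreated array. Of 6 primitive endoderm and 6 trophectoderm markers none passed, and the means of these lists were also highest at 8 d, at 5.59 and 6.67, against 4.76 and 5.66 on the untreated array of that set. At 8 d *Gata6* and *Foxa2* were 4.18- and 4.64-fold that array, and *Krt8*, *Krt18* and *Eomes* 3.94-, 6.21- and 2.81-fold. *Sox7*, *Cdx2* and *Elf5* were lower, at 0.631-, 0.946- and 0.846-fold. *Gata4*, *Sox17*, *Dab2* and *Hand1* lay between 1.03- and 1.66-fold. The 8 d values of *Socs3*, *Junb* and *Bcl3* stand beside these, and the part of other cell types in them was not tested.

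As a description of likeness, the probe sets whose log2 values ran most like a member over the 10 arrays were ranked among 14181 candidates, with arrays that share sets and medium. For the brightest probe set of *Lifr* they were *Kat6b*, *Macf1* and *Sft2d3*, with Pearson correlations of 0.97 each. For *Stat3* they were *Tnnt1* (0.93), *Otud1* (0.92) and *Gba2* (0.91), and for *Socs3* they were *Shisa5* and both probe sets of *Creb3* (0.95 each). No other member was among them.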

How the data were processed

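RNA from 10 samples of *Max*-null ESCs was hybridised to Affymetrix Mouse Genome arrays. The deposited values are log2 values that the authors made by background subtraction and RMA in R (their notes also name affy, with versions not given in the sources used here), and it is not known which arrays were normalized in 1 run. RMA shrinks differences of weak signals. Of 45101 probe sets, 64 controls were left out, and the platform's annotation gave 34945 of the other 45037 a single symbol, 932 several and did not list 9160. Slopes per day and Dox minus untreated were fitted with limma 3.58.1 in R 4.3.3 (lmFit, eBayes, array set as covariate, 5 residual degrees of freedom), with Benjamini-Hochberg adjustment over 45037 probe sets. Folds compare each Dox array with the untreated array in its own set. The script was tested on simulated data. The other steps used Python 3.11.15, pandas 2.3.3 and numpy 2.4.6.

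The members and lists were chosen with earlier results of these data known. Named genes were all 9 members, up to 3 called genes of each list by slope, *Lif*, *Osmr*, the 3 probe sets most like *Lifr*, *Stat3* and *Socs3* (range at least 1, a value of at least 6), and further genes marked as named after their values were seen. Alternatives changed the set term, the filter, the normalization, the regressor, the probe set rule, the fold threshold of 1.5, the untreated array or left out each array.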

Additional observations from a re-analysis of the deposited data

Results flagged for a closer look

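The 5 members below had a Dox 6 d array below the untreated array in 2i+LIF and above the untreated array in LIF+serum. The share of all genes with this pattern was not counted, so that the number of members with it cannot be read as a result. With 1 array on each side the difference between media was not tested. The change in 2i+LIF minus that in LIF+serum was -1.42 (log2) for *Lifr*, -1.04 for *Socs3*, -0.77 for *Junb*, -0.45 for *Stat3* and -0.37 for *Il6st*. For *Stat3* and *Junb* the change in LIF+serum was only 0.02 and 0.07, and the *Lifr* difference concerns its brightest probe set, since 1450207_at was lower with Dox in both media, by -0.33 in 2i+LIF and -1.20 in LIF+serum. The values for *Il6st* and *Stat3* also concern the brightest probe set. For *Il6st*, 1437303_at was higher with Dox in both media (0.28 in 2i+LIF, 0.31 in LIF+serum) and 1421239_at differed by 0.05 in 2i+LIF and -0.18 in LIF+serum. For *Stat3*, 1460700_at was lower in both (-0.36 and -0.14), as was 1459961_a_at (-0.36 and -0.09), and 1424272_at was higher in both (0.23 and 0.11).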

How the results depend on the processing

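No analysis paired arrays by replicate number, since these numbers were given in accession order and match no arrays. Dox and untreated arrays were matched through the array set, which was a covariate. The number of arrays limits the precision, and 4 of the 6 Dox times and 1 of the 2 untreated arrays are in the first set.

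In the trend, leaving out 1 array in turn gave 0 to 2 member genes that rose and 0 to 1 that fell (1 and 1 in all 8 arrays). Over all probe sets, 0 rose and 0 fell without the second untreated array (2150 and 1879 with all arrays; 6139 had an unadjusted p under 0.05), and 1120 rose and 820 fell without the array at 4 d. The second set alone called 0 and 0 member genes, and the first set alone 1 that rose (*Lifr*) and 0 that fell; single sets were tried after the data were seen. With no set term or with log2(day + 1) 0 members fell. For Dox against untreated, every setting called 0 members, while over all probe sets (848 rose, 502 fell) 0 passed with no set term, without the array at 3 d or 6 d, or in the first set alone, and 1350 and 1146 passed without that at 1 d.

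At single times, 1 gene instead of 3 was 2-fold higher with the mean of all probe sets of a gene, and at 1.5-fold 5 were higher and 3 lower. In 2i+LIF, 0 were 2-fold higher with Dox with centred arrays or the mean of probe sets, and 3 were lower at 1.5-fold. Untreated, 1 (*Socs3*) was 2-fold higher in 2i+LIF with centred arrays. The shares of all genes past 1.5-fold, or past 2-fold in these other settings, are not given here, so that these counts cannot be read as results about the members.

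The values that follow changed sign, and none of them passed a test. With the mean of probe sets, *Lifr* had a slope of -0.064, a Dox minus untreated of -0.32 and differences of -0.58 at 2 d, -0.16 at 3 d, -0.27 at 4 d, -0.28 at 6 d and -0.54 at 8 d, and *Osmr* a slope of 0.0037. In the first set alone, slopes were 0.10 for *Pim3* and -0.041 for *Junb*, and Dox minus untreated was -0.002 for *Stat3*, -0.12 for *Socs3*, 0.16 for *Pim3* and -0.14 for *Junb*. The second set alone gave *Lif* 0.016. With no set term, the *Lif* slope was 0.009, and Dox minus untreated was -0.02 for *Stat3* and 0.015 for *Pim3*. Leaving out 1 array, slopes ranged from -0.055 to 0.063 for *Pim3*, -0.0077 to 0.052 for *Junb*, -0.045 to 0.013 for *Lif* and -0.083 to 0.024 for *Osmr*, and Dox minus untreated from -0.01 to 0.073 for *Stat3*, -0.12 to 0.86 for *Socs3*, -0.53 to 0.16 for *Pim3* and -0.14 to 0.35 for *Junb*. The cause was not tested.

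Among the other tested values of single genes and probe sets, 398 kept direction and side of the threshold, 95 kept direction but were no longer called and 4 became called. Of 234 differences between single arrays, which had no test, 30 changed sign, those of *Lifr* included; the others of these 30 were at most 0.31 (log2) in size before.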
